A study of Mus musculus with 11 samples.

Results

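The γδ T cell receptor genes were followed in splenic CD8+ Tregs of young and middle-aged mice. The set held 5 genes chosen by name from the 54532 rows of the count table: the δ constant gene Trdc, the γ constant genes Trgc1, Trgc2 and Trgc4, and the γ variable gene Trgv2. Trdc and Trgv2 stood in the table under these symbols, and Trgc1, Trgc2 and Trgc4 were found under their older names (Tcrg-C1, Tcrg-C2 and Tcrg-C4) through the synonyms in the RefSeq gene table. The study asked how the transcriptome of CD8+ Tregs, a Foxp3-negative regulatory CD8+ T cell population, changes with age. Its 11 bulk RNA-seq libraries were made from wild-type mice, 3 from young males, 3 from young females, 2 from middle-aged males and 3 from middle-aged females. Young mice were 2 to 3 months old, and middle-aged mice, which the labels call Old, were 10 to 12 months old. The paper's figure legend for this RNA-seq gives 3 months and 12 months, within these ranges. Splenic cells were taken with CD8 positive-selection beads and then sorted as CD8+CD44+Ly49+CD122+. The methods name no antibody to either T cell receptor for this sort, so the receptor type was not a gate. No treatment was given. The study calls the libraries biologically independent replicates, without saying how many mice went into each, so p-values measure the spread between these libraries.

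T cells carry either an αβ or a γδ receptor, each signalling through CD3. The γ genes lie in separate cassettes, each with its own variable, joining and constant segments, and Trgv2 belongs to the cassette of Trgc2. T cells that end with an αβ receptor can have rearranged γ genes and may still transcribe them, so γ constant reads alone do not show that γδ cells are present. Trdc differs in position, since it sits inside the α locus between the Trdj and Traj segments, and joining of an α variable to an α joining segment removes it from that chromosome. The αβ constant genes Trac, Trbc1 and Trbc2 served as the reference here, and reads of each gene were expressed as a percent of their summed reads.

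Of the 4 γ constant genes of the mouse, Trgc1, Trgc2 and Trgc3 are near copies and Trgc4 is less alike. This likeness decides how well short reads tell the genes apart. The first 150 bases of the first exon are shown for each, 5′ to 3′ on the coding strand, with capitals marking bases that differ from Trgc1 in the GRCm38 annotation.
Trgc1: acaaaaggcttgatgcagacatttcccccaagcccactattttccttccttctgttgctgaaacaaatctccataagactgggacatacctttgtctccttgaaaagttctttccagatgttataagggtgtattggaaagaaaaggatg
Trgc2: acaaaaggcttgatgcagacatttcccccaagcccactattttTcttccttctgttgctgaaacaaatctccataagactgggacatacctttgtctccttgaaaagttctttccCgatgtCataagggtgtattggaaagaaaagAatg
Trgc3: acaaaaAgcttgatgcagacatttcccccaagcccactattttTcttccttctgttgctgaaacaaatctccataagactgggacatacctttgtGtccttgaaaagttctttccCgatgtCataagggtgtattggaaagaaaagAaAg
Trgc4: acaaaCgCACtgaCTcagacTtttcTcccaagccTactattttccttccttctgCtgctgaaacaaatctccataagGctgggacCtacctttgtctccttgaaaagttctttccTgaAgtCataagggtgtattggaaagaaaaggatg

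Over the whole first exon, 330 bases in each gene, Trgc1 and Trgc2 differed at 9 bases (97.3% identity), and Trgc1 and Trgc4 differed at 59 (82.1% identity). The printed stretches lie in GRCm38 at chr13:19214103-19214252 on the plus strand (Trgc1), chr13:19307402-19307551 on the minus strand (Trgc2), chr13:19260885-19261034 on the plus strand (Trgc3) and chr13:19344558-19344707 on the plus strand (Trgc4). Of all 31-base words in the annotated transcript, 49% in Trgc1, 54.1% in Trgc2 and 43.4% in Trgc3 occurred in no other gene. Trgc4 shared no such word with another gene, so its reads were separable along its whole length. The split of reads between Trgc1 and Trgc2 is therefore less certain than either gene against Trgc4. Trgc3, which has no place among the 5 genes, held 0 to 17 reads per library.

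Trgv2 and Trdc are shown because the first tracks the Trgc2 cassette and the second is the sole δ constant gene. The stretches are the first 150 bases of exon 2 of Trgv2, chr13:19336730-19336879 on the minus strand, and of exon 1 of Trdc, chr14:54142851-54143000 on the plus strand. Capitals are not used here, as nothing is compared.
Trgv2: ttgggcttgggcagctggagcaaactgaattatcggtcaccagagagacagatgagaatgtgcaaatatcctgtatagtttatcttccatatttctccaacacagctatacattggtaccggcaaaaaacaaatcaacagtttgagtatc
Trdc: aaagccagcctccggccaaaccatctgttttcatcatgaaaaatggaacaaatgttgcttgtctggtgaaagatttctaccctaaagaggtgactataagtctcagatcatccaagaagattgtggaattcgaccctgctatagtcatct

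Trgv2 shared part of its sequence with Tcrg-V1 and Tcrg-V3, and 79.8% of its 31-base words were its own. Trdc had 91.8% of its words to itself, and the others recur in 3477 further genes. The annotation also places Trdv5 antisense to the 3′ end of Trdc, and whether the counting used strand is not given in the sources used here, so reads of the 2 genes may mix there. Trdv5 held 0 to 17 reads per library against 127 to 471 for Trdc.

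The libraries held 6135736 to 24394532 counted reads, and the young male 1 and young female 1 libraries (6135736 and 8421396 reads) were the shallowest. The αβ constant genes gave 30867 to 111884 reads per library, or 0.258% to 0.655% of the total. In CPM (reads scaled to the TMM-adjusted library size), Cd8a ran at 642 to 1015 and Cd8b1 at 1293 to 2717. These genes encode the α and β chains of CD8, and the methods of the sort do not say which chain was stained. The only CD8 antibody in the paper's flow cytometry list is one to CD8β. Il2rb, which encodes CD122, ran at 552 to 2625 CPM. Middle-aged female 2 stood apart in 7 myeloid markers, which summed to 2631 CPM there and to 40.1 to 339 CPM in the other libraries, and in 3 plasma cell markers (199 CPM against 1.99 to 46.1 CPM). Age differences are given with all libraries, and the main ones also without this library or without the 2 shallow ones.

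Every one of the 5 genes was read in every library, at levels far below the αβ constant genes. Per kilobase of the annotated gene length, Trgc2 was the highest of the γ constant genes, with a young mean of 83.4 ± 29.8 CPM per kb (SD, n = 6) and a middle-aged mean of 113 ± 47.9 (SD, n = 5). Trgv2 came next at 49.9 ± 12.9 and 80.8 ± 38.5 CPM per kb. Trgc4 (20.9 ± 10.6 and 23.7 ± 10.8) and Trgc1 (17.6 ± 3.67 and 25.5 ± 12.3) lay within each other's spread. Trdc was lowest at 5.12 ± 1.94 and 3.89 ± 0.683 CPM per kb. That rank depends on its annotated length, 3865 bases against 914 to 985 for the γ constant genes. Without the division by length, its young mean (19.8 CPM) lay between those of Trgc1 (16.3) and Trgc4 (20.6). In the middle-aged group it was still the lowest (15.0 CPM against 23.6 and 23.3). Per kilobase, Trac stood at 2175 ± 825 in young and 1631 ± 547 in middle-aged libraries. The 3 γ constant genes together amounted per kilobase to 1.84% to 4.63% of the 3 αβ constant genes, and Trdc to 0.0651% to 0.133%.

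**Figure D1:**
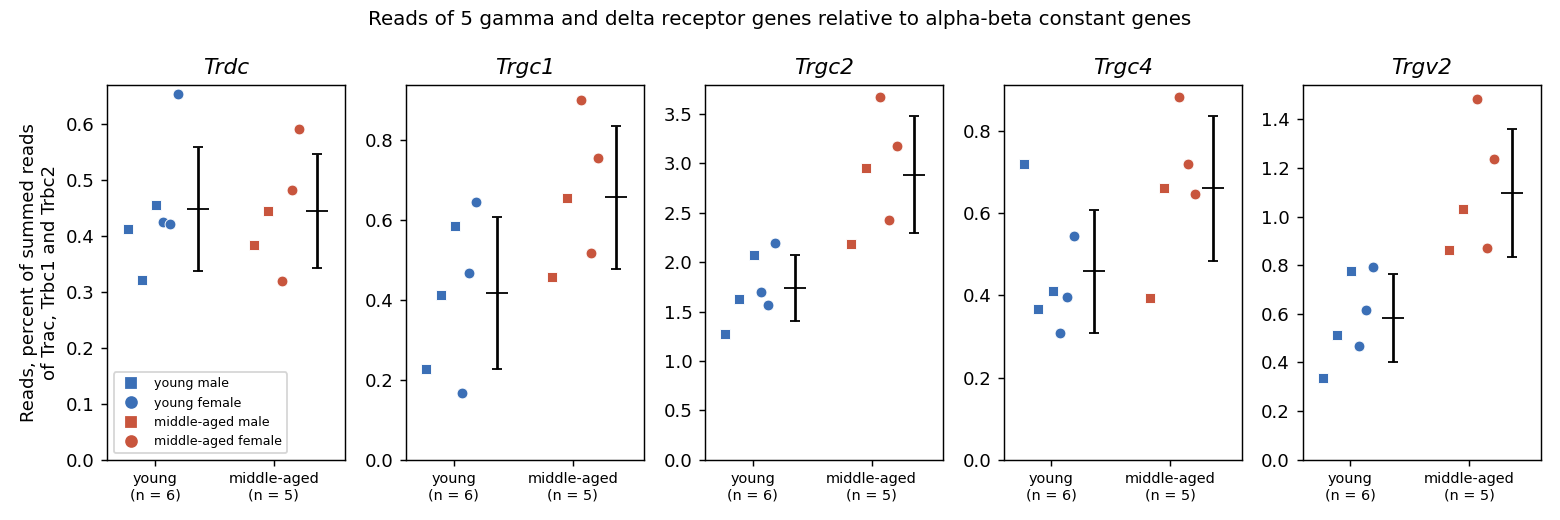
Reads of each gene as a percent of the summed reads of Trac, Trbc1 and Trbc2, 1 point per library (squares male, circles female, blue young, red middle-aged), with the mean and SD of each age group in black. The middle-aged libraries of Trgv2 lie above all young ones, Trgc2 overlaps by 1 library on each side, and Trdc overlaps throughout.

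Trgc2, the constant gene with the most reads, took a larger share of receptor reads in middle-aged CD8+ Tregs. The share ran from 1.28% through a median of 1.66% to 2.19% of αβ constant reads in the 6 young libraries. It was 2.19% and 2.95% in middle-aged males 1 and 2, and 3.67%, 2.43% and 3.18% in middle-aged females 1, 2 and 3. Of the middle-aged libraries, 4 lay above every young one, and middle-aged male 1 fell just under young female 3, well inside the exact 95% binomial interval of either (2.10% to 2.28% and 2.07% to 2.32%; such intervals cover counting error only). The mean rose from 1.74% ± 0.338 (SD, n = 6) to 2.88% ± 0.593 (SD, n = 5), a log2 difference of 0.73 ± 0.18 (SE). An exact two-sided permutation test over all 462 ways to choose 5 of the 11 libraries gave p = 0.00649 (the smallest possible is 0.00216). In the same direction 7.67% of all 13129 genes tested had an exact p under 0.05.

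Trgv2, the variable gene of the same cassette, showed the widest difference of the 5. Its share was 0.337% at the lowest, 0.564% at the median and 0.791% at the highest of the young libraries. In the middle-aged libraries it was 0.863% and 1.03% in males 1 and 2, and 1.48%, 0.869% and 1.24% in females 1, 2 and 3. All 5 middle-aged libraries lay above all 6 young ones, which held for 1.74% of all genes tested. The mean went from 0.583% ± 0.180 to 1.10% ± 0.265, which is 1.92-fold on the log scale (log2 difference 0.94 ± 0.25 SE, exact two-sided permutation p = 0.00649).

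These differences have to be read against the shift of the reference itself, because 87.8% of all 13129 genes tested had a higher share in the middle-aged group and the median log2 difference over all of them was 0.40. Relative to that median, Trgv2 was higher by 0.54, Trgc1 by 0.37, Trgc2 by 0.33 and Trgc4 by 0.14 (log2), and Trdc was lower by 0.40. Of the 5 genes, 2 (Trgc2 and Trgv2) had an exact p under 0.05, and 1 (Trgv2) had groups that did not overlap. A larger difference than that of Trgv2 was found in 17.7% of genes, and than that of Trgc2 in 24.4%. Adjusted over all genes with the Benjamini-Hochberg method, the share test gave 0.323 for both in the exact permutation test, and no gene of the table went under 0.284.

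**Figure D2:**
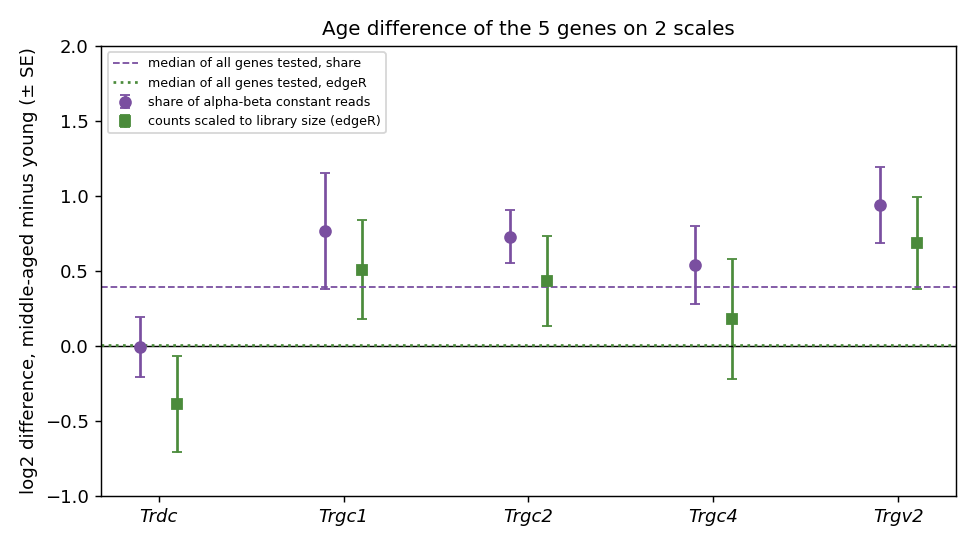
The log2 difference between middle-aged and young libraries (vertical axis, ± SE) for the 5 genes, as a share of αβ constant reads (circles) and from edgeR on counts scaled to library size (squares), with the median of all genes tested on each scale as a line. Each gene is lower on the library-size scale, whose median of all genes is near 0, than on the share scale, whose median is 0.40.

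Trgc1, the constant gene of another cassette, had a similar mean difference with a wider spread. Its share was 0.167% at the lowest, 0.441% at the median and 0.645% at the highest of the young libraries. It was 0.456% and 0.655% in middle-aged males 1 and 2, and 0.901%, 0.519% and 0.755% in middle-aged females 1, 2 and 3. The groups overlapped, with 3 of the 5 middle-aged libraries above all young ones. The 2 lowest values, 0.167% and 0.227%, belonged to the 2 shallow young libraries and rested on 92 and 70 reads. The log2 difference was 0.76 ± 0.39 (SE), with an exact permutation p = 0.0823. Without these 2 libraries it fell to 0.29 (exact permutation p = 0.270). The 2 libraries were both replicate 1 of their group, so depth and replicate number cannot be told apart here. Young shares rose with replicate number, from 0.227% through 0.413% to 0.586% in males and from 0.167% through 0.468% to 0.645% in females. The αβ reads in the denominator fell with that number, from 5582 through 4078 to 2602 CPM in young males. In young females they fell from 7665 through 4451 to 3008 CPM, and in both middle-aged groups they fell as well. This bears on the shares of all 5 genes, and its part in their order was not tested.

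Trgc4, whose reads are the most separable, did not pass the test. Its share ran from 0.308% through 0.404% to 0.719% in the young libraries. It was 0.394% and 0.660% in middle-aged males, and 0.883%, 0.719% and 0.646% in middle-aged females 1, 2 and 3. Young male 1, the shallowest library, was the highest young one and stood level with middle-aged female 2. The log2 difference was 0.54 ± 0.26 (SE, exact permutation p = 0.0866). The exact p was 0.0317 without young male 1 and 0.0286 without middle-aged male 1. Without both shallow libraries the log2 difference was 0.59 (exact permutation p = 0.0635). The middle-aged females lay above the young females (as for 12% of all genes) and the middle-aged males overlapped the young males, with log2 differences of 0.87 in females and 0.095 in males. That contrast between the sexes was not significant on the count scale (interaction 0.52 in log2, edgeR adjusted p = 1.000).

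Trdc, the δ constant gene, was level on the share scale. The young libraries held 0.321% at the lowest, 0.423% at the median and 0.653% at the highest. Middle-aged males 1 and 2 held 0.384% and 0.445%, and middle-aged females 1, 2 and 3 held 0.320%, 0.481% and 0.591%. The highest value was from young female 3 and the lowest from middle-aged female 1, with full overlap in between. The log2 difference was -0.0093 ± 0.20 (SE, exact permutation p = 0.968). On this scale the median over all genes tested was 0.40, and 88.1% of them had a higher difference than Trdc.

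The same genes were then compared as counts scaled to library size. None of the 5 was among the 3 genes (0.0229% of 13129) with an edgeR adjusted p under 0.05. Trgv2 came nearest, with means of 24.5 ± 6.32 CPM (SD) in the young and 39.7 ± 18.9 CPM in the middle-aged group (log2 fold change 0.69 ± 0.31 SE, edgeR unadjusted p = 0.0453, adjusted p = 1.000). An unadjusted p under 0.05 was reached by 2.99% of all genes and by 1 of these 5. Trgc1 had a log2 fold change of 0.51 ± 0.33, Trgc2 of 0.43 ± 0.30 and Trgc4 of 0.18 ± 0.40, and Trdc of -0.39 ± 0.32, each with an adjusted p of 1.000. With TMM-scaled library size in place of αβ reads, the exact permutation p became 0.208 for Trgc2 and 0.0606 for Trgv2. With the reads of Cd3d, Cd3e and Cd3g, subunits that both receptors use, as the denominator, the log2 differences were 0.52 for Trgc2 (exact permutation p = 0.0238) and 0.73 for Trgv2 (exact permutation p = 0.0260). The αβ constant genes themselves had log2 fold changes of -0.41 (Trac), -0.27 (Trbc1) and -0.29 (Trbc2) in edgeR, none of which passed the test. In bulk libraries, fewer cells of a type and less RNA per cell cannot be told apart.

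The CPM values show which libraries carried these means. Middle-aged female 1 was the highest library of all for Trgc1 (43.0 CPM), Trgc2 (175 CPM), Trgc4 (42.1 CPM) and Trgv2 (70.7 CPM). The other 4 middle-aged libraries held 65.1 to 111 CPM of Trgc2, against 53.8 to 71.3 CPM in 5 young libraries and 130 CPM in young female 1. Without middle-aged female 1 the log2 fold changes from edgeR were 0.19 for Trgc1, 0.18 for Trgc2, -0.14 for Trgc4 and 0.40 for Trgv2. Trgc4 thereby changed direction, as it also did in males alone (-0.11). The share differences without this library stayed upward at 0.63 for Trgc2 (exact permutation p = 0.0143) and 0.82 for Trgv2 (exact permutation p = 0.00952). Without both shallow libraries they were 0.62 (exact permutation p = 0.0238) and 0.69 (exact permutation p = 0.0159). Without middle-aged female 2, the library with myeloid and plasma cell markers, they were 0.78 (exact permutation p = 0.0143) and 1.01 (exact permutation p = 0.00952). In edgeR, leaving out both shallow libraries gave log2 fold changes of 0.345 for Trgc1, 0.67 for Trgc2, 0.60 for Trgc4, 0.75 for Trgv2 and -0.081 for Trdc. Leaving out middle-aged female 2 gave 0.66, 0.58, 0.24, 0.85 and -0.31 in the same order. No adjusted p was under 0.05 in either case.

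The γ reads were divided among the constant genes in much the same way in most libraries. Trgc2 gave 57.4% to 78.2% of the reads of Trgc1, Trgc2 and Trgc4 in young and 66.2% to 72% in middle-aged libraries. Trgc1 gave 7.67% to 19.3% and 14.2% to 16.5%, and Trgc4 gave 13.4% to 32.4% and 13% to 19.6%. The extremes were the 2 shallow libraries, young male 1 with 32.4% Trgc4 and young female 1 with 78.2% Trgc2. Together the 3 genes came to 2.18% to 3.38% of αβ constant reads in young and 3.04% to 5.46% in middle-aged libraries.

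**Figure D3:**
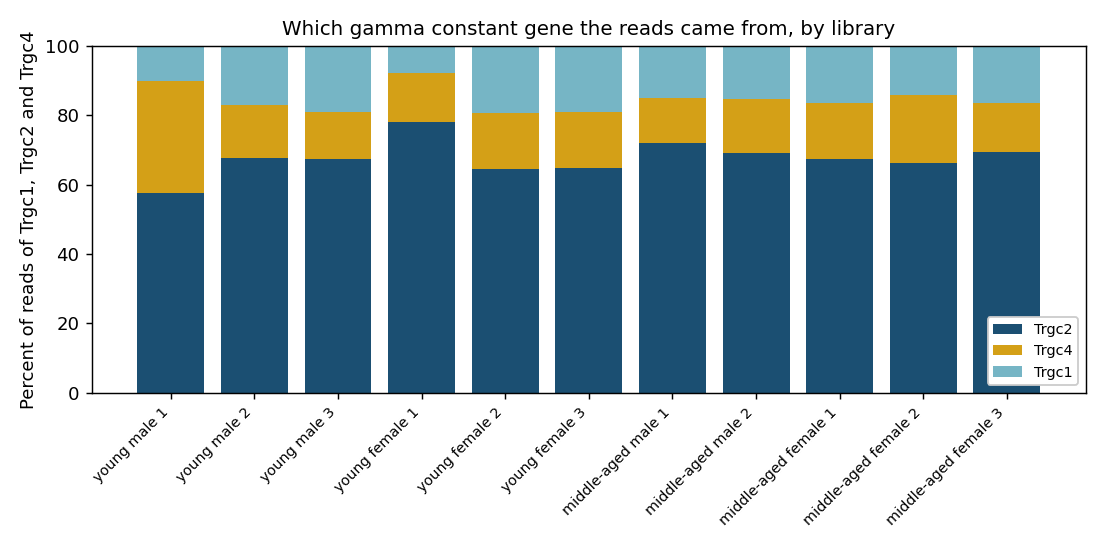
Percent of the reads of Trgc1, Trgc2 and Trgc4 that came from each gene (stacked to 100), 1 bar per library, young libraries on the left. Trgc2 fills 57.4% to 78.2% of every bar, and the 2 bars that differ most are young male 1 and young female 1.

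Trgv2 followed Trgc2 closely from library to library. Per kilobase, Trgv2 stood at 49.1% to 73.6% of Trgc2 in young and 65.0% to 75.2% in middle-aged libraries. Pearson's r between the 2 shares over the 11 libraries was 0.97 on the log2 scale, and 0.93 between their log2 CPM values, or 0.92 after the mean of each age group was removed. The points share the αβ denominator in the first case and library size in the second. Against the constant genes of other cassettes, Trgv2 gave 0.80 with Trgc1 and 0.48 with Trgc4 in log2 CPM. Trdc gave -0.22 with Trgc1, 0.41 with Trgc2, 0.45 with Trgc4 and 0.16 with Trgv2.

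Trdc was also set against the γ constant genes directly. There were 13.3 Trdc reads per 100 reads of the 3 γ constant genes at the lowest, 17.9 at the median and 19.5 at the highest in young libraries. Middle-aged males 1 and 2 had 12.7 and 10.4, and middle-aged females 1, 2 and 3 had 5.87, 13.1 and 12.9. The age groups did not overlap, though the nearest values were 13.1 and 13.3. This ratio uses no αβ reads, but it restates counts of the same genes that were described above. How often ratios of other genes separate the age groups is not given here. The Trdc ratio was formed after the values of the 5 genes had been seen and is given without a test.

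**Figure D4:**
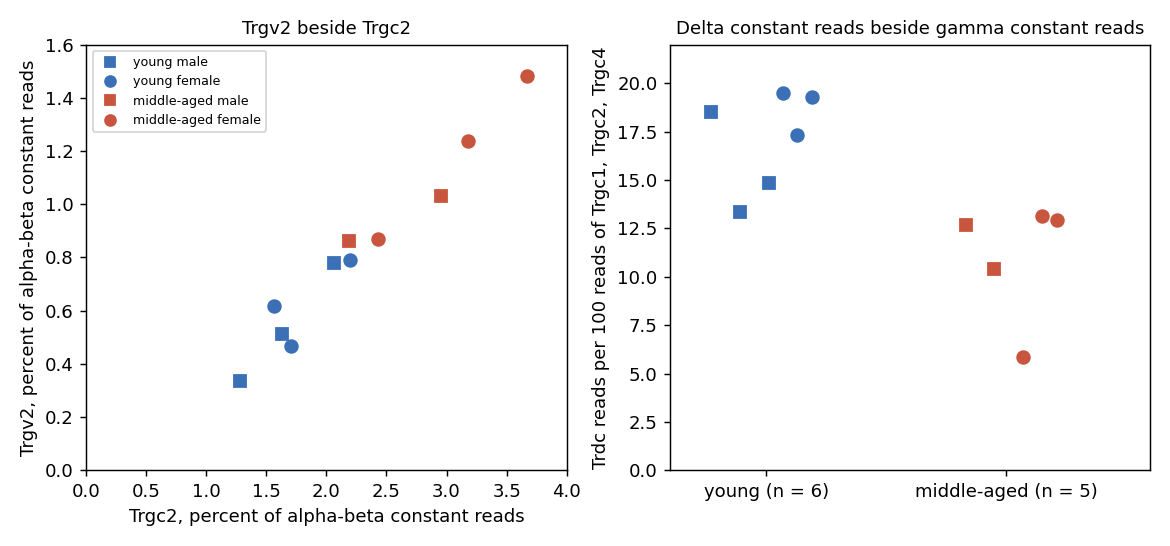
Left, the share of Trgv2 against that of Trgc2 (both in percent of αβ constant reads), 1 point per library. Right, Trdc reads per 100 reads of Trgc1, Trgc2 and Trgc4, which span 13.3 to 19.5 in the young and 5.87 to 13.1 in the middle-aged libraries.

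The remaining rows of both loci were sparse. Of 11 further γ rows, 8 reached 10 reads in some library and 4 were tested, and of 10 further δ rows 6 reached 10 reads and 4 were tested. No further row of either locus passed the test or had an unadjusted p under 0.05 (edgeR, background 2.99%). Among γ variable genes, Tcrg-V1 had 19 to 101 reads per library (log2 fold change -0.12 ± 0.51 SE), Tcrg-V4 0 to 125 (0.69 ± 0.77) and Tcrg-V6 0 to 21 (0.57 ± 0.90). Tcrg-V7 had 15 reads in middle-aged female 2, 2 in middle-aged female 1 and 0 elsewhere. The joining segments Trgj1, Trgj2 and Trgj4 stayed at or below 26 reads, with log2 fold change -0.23 ± 0.77 for Trgj4, the only one tested. Each of these rows held far fewer reads than Trgv2, which had 104 to 1335.

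The δ variable genes encode the part of the δ chain that meets its ligand. Trdv2-2 had 32 to 106 reads per library (log2 fold change -0.81 ± 0.42 SE, edgeR unadjusted p = 0.0744, adjusted p = 1.000) and Trdv1 had 19 to 106 (0.15 ± 0.49). Trdv4 had 0 reads in both shallow libraries, 36 to 49 in the other 4 young ones, 8 to 16 in 4 middle-aged ones and 107 in middle-aged female 2. The joining segment Trdj1 had 0 to 34 reads (log2 fold change -2.16 ± 1.14 SE, edgeR unadjusted p = 0.0831, adjusted p = 1.000), and Trdd2 reached 10. None of these δ rows passed the test.

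The genes that make and carry a receptor were looked at beside the 5. Of the 4 CD3 signalling subunits, none passed the test, and their median log2 fold change was -0.077 against 0.0028 over all genes. Rag1 and Rag2, the recombinase subunits, had 0 reads in all 11 libraries. Dntt, which adds bases at the joints, reached 55 reads, and Ptcra, the pre-receptor α chain, had 8 reads in 1 library. None of the 4 was deep enough to test.

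Of 20 regulators of γ gene rearrangement and γδ lineage choice, 19 were tested and none passed an edgeR adjusted p under 0.05, with 1 higher and 5 lower at an unadjusted p under 0.05. The median log2 fold change was -0.21 against 0.0028 over all genes. Id2, an inhibitor of E proteins, had a log2 fold change of 1.03 ± 0.21 SE (edgeR adjusted p = 0.228), with 186 to 264 CPM in young and 295 to 582 CPM in middle-aged libraries. Id3, its paralog induced by receptor signals, had -1.50 ± 0.35 (edgeR adjusted p = 0.334), from 286 to 804 CPM down to 88.8 to 267 CPM. The groups did not overlap for either gene, which held for 1.01% of genes upward and 0.297% downward. Myb had -1.79 ± 0.40 (edgeR adjusted p = 0.321) and Egr3 -2.13 ± 0.67 (edgeR adjusted p = 0.766). Il7r, Stat5a and Stat5b, on the pathway that opens the γ locus, had log2 fold changes of 0.046, -0.21 and -0.061. Sox13, a transcription factor of γδ cells, was not tested, with at most 4 reads.

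Markers of γδ T cells outside the receptor were mixed. Of the 10 genes listed, 6 were deep enough to test, while Il17a and Il23r had 0 reads in all libraries, Sox13 had 0 in 8 and Zbtb16 in 6. Cd163l1, a scavenger receptor of γδ cells, was read at 42.5 to 77.5 CPM in young and 5.72 to 56.5 CPM in middle-aged libraries (log2 fold change -0.85 ± 0.52 SE, edgeR adjusted p = 1.000). Its relative 5830411N06Rik was at 1.27 to 50.8 and 3.59 to 21.4 CPM (-1.35 ± 0.69). None of the 6 genes tested passed, with log2 fold changes above 0 for 3 and below 0 for 3. Of the 3 above 0, Tmem176a and Tmem176b were highest in middle-aged female 2. Without that library the middle-aged group reached 5.51 and 6.67 CPM, under the highest young values of 8.51 and 7.75 CPM. Ccr6 reached 4.88 CPM in the middle-aged group with or without it, and 2.34 CPM in the young. The list summed to 50.5 to 151 CPM in young and 24 to 95.2 CPM in middle-aged libraries. Middle-aged female 1, the highest library for the γ genes, had the lowest sum of this list, 24 CPM. Pearson's r of the summed list with Trgc2 was -0.60 and with Trdc -0.056 in log2 CPM over 11 libraries, which share their scaling.

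**Figure D5:**
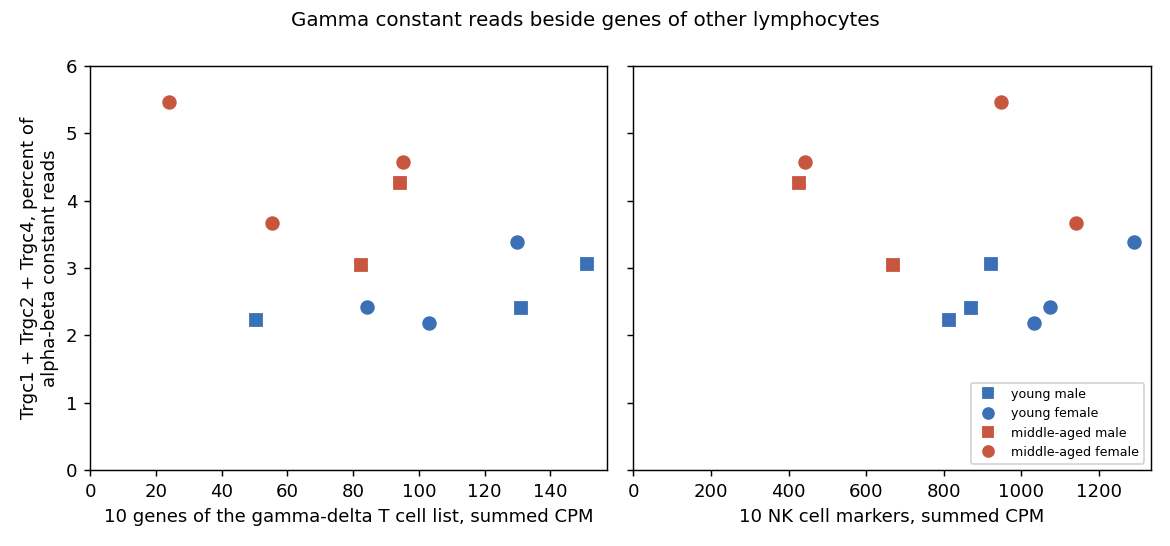
Summed reads of Trgc1, Trgc2 and Trgc4 (percent of αβ constant reads, vertical axis) against the summed CPM of 10 γδ T cell genes (left) and of 10 NK cell markers (right), 1 point per library. The library highest on the vertical axis, middle-aged female 1, is lowest on the γδ list at 24 CPM.

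NK cell markers mostly had log2 fold changes below 0. The 10 markers summed to 813 to 1289 CPM in young and 426 to 1140 CPM in middle-aged libraries, and none of them was at 0 everywhere. Of the 9 tested, 8 were below 0, 3 of them with an edgeR unadjusted p under 0.05 and none with an adjusted one. Ncr1, an activating receptor that defines NK cells, had 25.1 to 120 CPM in young and 1.81 to 48.8 CPM in middle-aged libraries (log2 fold change -2.33 ± 0.69 SE, edgeR adjusted p = 0.660). Middle-aged female 2 held the highest middle-aged Ncr1 value, 48.8 CPM, and the highest middle-aged sum, 1140 CPM. Without it the middle-aged libraries reached 22.6 CPM of Ncr1, against a young minimum of 25.1 CPM, and a sum of 947 CPM. With all libraries the Ncr1 groups overlapped, and the share of all genes that separate without middle-aged female 2 is not given here. Pearson's r of the NK sum was 0.29 with Trdc and -0.10 with Trgc2 over 11 libraries. The summed αβ constant genes gave 0.81 with Trdc and 0.60 with Trgc2. Further lists differed between the ages without any gene passing the adjusted threshold, among them the erythroid and platelet, myeloid and plasma cell lists. The 7 erythroid and platelet markers summed to 27.8 to 155 CPM in young and 1.05 to 31.5 CPM in middle-aged libraries. Of the 6 tested, 4 were below 0 and 2 above, with a median log2 fold change of -2.54. The 4 below 0 were globin genes, each with an edgeR unadjusted p under 0.05. Those above 0 were the platelet genes Pf4 (1.74 ± 1.53 SE) and Ppbp (0.95 ± 1.34). The 7 myeloid markers summed to 40.1 to 239 CPM and 150 to 2631 CPM (150 to 339 CPM without middle-aged female 2). Their median log2 fold change was 0.97, with 5 above 0 and 2 below (C1qa -1.13 and C1qb -1.26). The 3 higher at an edgeR unadjusted p under 0.05 were Lyz2, S100a8 and S100a9. The 3 plasma cell markers summed to 1.99 to 20.5 CPM in young and 18.8 to 199 CPM in middle-aged libraries. Without middle-aged female 2 the middle-aged range was 18.8 to 46.1 CPM. For the plasma cell markers the median log2 fold change was 0.85, with 2 above 0, 1 below and none at an edgeR unadjusted p under 0.05. The part of γδ, NK, erythroid, myeloid or plasma cells in these results was not tested.

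No difference between the sexes was detected in the 5 genes. The log2 fold change of females over males lay between 0.044 (Trgc4) and 0.35 (Trgv2), with edgeR adjusted p = 1.000 for each, while 5 of all genes tested (0.0381%) passed that threshold. Within males, Trgc2 and Trgv2 shares were higher in both middle-aged libraries than in all 3 young ones (log2 differences 0.64 and 0.88), and within females all 3 middle-aged libraries lay above the 3 young ones for both genes (0.76 and 0.94). Of all genes tested, 6.86% were separated in this direction within males and 12% within females. An age-by-sex interaction was called for 0 of 13129 genes by edgeR, with 158 (1.2%) at an unadjusted p under 0.05 and none of the 5 among the latter.

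The genes with the pattern most like each of the 5 were sought among 12088 other tested genes with a mean of at least 1 CPM, by Pearson's r of log2 CPM over the 11 libraries. Trgc2 and Trgv2 were in each other's first 5, as the second for Trgc2 (0.93) and the first for Trgv2 (0.93). Trgc2 also had Fam204a (0.93), C330018D20Rik (0.92), Zfp945 (0.90) and Srsf11 (0.90), and Trgv2 had Gm5547 (0.90), Gstp3 (0.90), the chemokine gene Ccl5 (0.89) and Tsen15 (0.89). Trgc1 was nearest to 1110051M20Rik (0.94), Ssbp2 (0.90), Rd3 (0.89), Mtif3 (0.85) and Elp4 (0.85). Trgc4 was nearest to Capza2 (0.93), Mrpl16 (0.93), Ube2v2 (0.93), Dcaf13 (0.92) and Emc2 (0.92). Trdc was nearest to Gm15536 (0.96), Gm49359 (0.95), Gm12254 (0.94), I730030J21Rik (0.91) and Fdxacb1 (0.90), with no γ gene among its first 5. With 11 libraries and so many genes compared, such values describe these libraries only.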

How the data were processed

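The deposited table, per the labels' processing notes made with kallisto and the mm10 build, holds counts per gene for 11 libraries. The authors extracted RNA with the Zymo Quick-RNA MiniPrep kit and prepared libraries with the Takara SMARTer high sensitivity kit, and Novogene ran the analysis. The version, the strand setting and the role of kallisto are not given in the sources used here. Columns were matched to libraries by title. Genes passing filterByExpr (count minimum 10) were fitted in edgeR 4.0.16 (R 4.3.3) with TMM factors, a sex and an age term and a robust quasi-likelihood test, and p-values were Benjamini-Hochberg adjusted over 13129 genes at a threshold of 0.05. Shares were log2((reads + 0.5) / summed reads of Trac, Trbc1 and Trbc2), compared by an exact two-sided permutation test. Alternatives included DESeq2 1.42.0 and limma 3.58.1. In simulated data, 200 of 13129 genes were changed between middle-aged and young libraries. There edgeR called 6% of genes changed by 1 in log2 and 76% of those changed by 3. The share test reached p under 0.05 for 49% and 93%. Each gene was drawn independently and the αβ constant genes were left unchanged. The data had a median share difference of 0.40, so the rates of the share test need not hold for them. Gene lengths are those in the table, and sequences and repeated words come from the GENCODE M21 transcripts of GRCm38, the build of the coordinates in the table. Gene names outside the table's own came from RefSeq (GRCm38.p6). One gene of the γδ T cell list is not reported here and was left out of its sum. The members and gene lists were chosen with earlier results of these data known. Named genes were the 5 members, other γ and δ rows with at least 10 reads in some library, the αβ constant genes, the lists, and the 5 genes most like each member. In the other marker lists, the number tested and passing were 9 and 0 (sort markers), 4 and 0 (CD4 T cells), 4 and 0 (B cells), 3 and 0 (plasma cells), 7 and 0 (myeloid), 4 and 0 (dendritic) and 6 and 0 (erythroid and platelet).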

Additional observations from a re-analysis of the deposited data

Results flagged for a closer look

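In the 6 young libraries, the Trgc2 level of young female 1 (130 CPM) lay far from the other 5, of which the next was 71.3 CPM. As a share of αβ constant reads the same library (1.70%) lay inside the young range. In the 5 middle-aged libraries, the Trgc4 level of middle-aged female 1 (42.1 CPM) lay far from the others, of which the next was 20.4 CPM, and its share (0.883%) did not stand apart by the same test. Chance flags about 1 in 20 such groups, and 20 groups were examined.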

How the results depend on the processing

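The share differences of Trgc2 and Trgv2 kept their direction and an exact p under 0.05 in every alternative with a test except TMM-scaled library size as the denominator (0.41, p = 0.208 and 0.62, p = 0.0606, exact permutation). Leaving out each library gave 0.63 to 0.82 for Trgc2, 0.79 to 1.04 for Trgv2, 0.53 to 0.92 for Trgc1, 0.42 to 0.71 for Trgc4 and -0.12 to 0.11 for Trdc. The Trgc1 share passed without young female 3 (0.92, exact permutation p = 0.0476). The Trgc4 share passed with Trac alone as denominator (0.61, exact permutation p = 0.0303) and moved to 0.095 in males alone. The Trdc share difference did not pass in any alternative. It was -0.21 with CD3 reads and -0.33 with TMM-scaled library size as denominator, and turned positive with Trac alone (0.060), in males alone (0.076) and when young male 3 (0.00205), middle-aged male 1 (0.035), young female 3 (0.11) or middle-aged female 1 (0.10) was left out. In edgeR, Trdc turned to 0.066 in males alone and Trgc4 to -0.11 in males alone and -0.14 without middle-aged female 1 (-0.14 to 0.51 over each library left out). No alternative brought any of the 5 genes under an adjusted p of 0.05. The number of genes called over the whole table was 3, and became 1 with αβ reads as library size, 17 with at least 1 count in any library, 5 with at least 10 counts in every library, 5 without the sex term, 0 in males alone, 0 in females alone, 112 with DESeq2, 138 with limma voom, 6 without both shallow libraries (chosen after seeing the data) and 1 to 4 with each library left out. The cause of these changes was not tested.

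Replicate numbers are shared between groups. Of 15 same-numbered pairs 13 had deviations that correlated above 0.1 (lowest 0.0250), and 9 of 11 libraries correlated best with their own number, a hint from the data that does not establish pairing. With the number as a replicate block shared by both sexes, 19 genes were called by edgeR, and with the number within sex 2. Permutation within replicate number, another block, gave share differences of 0.81 for Trgc1 (exact permutation p = 0.00926, the smallest that 108 arrangements allow) and 0.065 for Trdc, and changed no other call. Depth limits Trgc1 most, at 70 reads in the shallowest library.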
